A study of Mus musculus with 18 samples.

Results

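The comparison described here set the 3 libraries of Zfp598 siRNA B directly against the 3 libraries of Zfp598 siRNA A, which are 6 of the 18 libraries of the series, and used no Scramble library in the fit. All 6 libraries came from Neuro-2a (N2A) cells, a mouse neuroblastoma line, transfected for 72 h with 1 of 2 siRNAs (A or B) aimed at the same mRNA, that of Zfp598. The other 12 libraries of the study came from cells given either of 2 siRNAs to Fmr1 or either of 2 Scramble control siRNAs, for the same time and with the same lipid reagent. Total RNA was depleted of rRNA and sequenced, and read counts per gene were deposited. Every library was made from total RNA of 1 cell line, and per the study's text each siRNA was used for knockdown in triplicate. Whether the 3 knockdowns were made on separate days or passages is not given in the sources used here, and the p-values measure the spread between these libraries.

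Zfp598 (ZNF598 in humans) is an E3 ubiquitin ligase that recognises collided ribosomes and marks small-subunit proteins, an early step of no-go mRNA decay (NGD) and of ribosome quality control. An siRNA directs an Argonaute protein to its target mRNA, and transcripts matched only by the short seed of an siRNA can be lowered as well. For this reason a knockdown is commonly made with more than 1 siRNA per target. The sequences of the siRNAs were not used here, and matches to their seeds were therefore not searched.

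The 6 libraries held between 7674724 and 13360908 counts. A single feature, ENSMUSG00000118642, which has no entry in the annotation used here, took 5.67%, 15.2% and 25.8% of the counts in siRNA A libraries 1, 2 and 3, and 5.40%, 6.03% and 7.92% in siRNA B libraries 1, 2 and 3. In the other 12 libraries its share ran from 5.00% to 11.1%. Libraries 2 and 3 of siRNA A thus stood apart from all others, while library 1 of siRNA A lay within the range of siRNA B, and list medians and calls that changed without those libraries are given beside the results below. The siRNA B libraries resembled each other more closely: the chi-square per degree of freedom of their paired counts was between 3.77 and 8.10, against 28.8 to 140 between siRNA A libraries. These counts included ENSMUSG00000118642, so the statistic is not separate from the shares above, and the part of that feature in it was not tested.

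**Figure D1:**
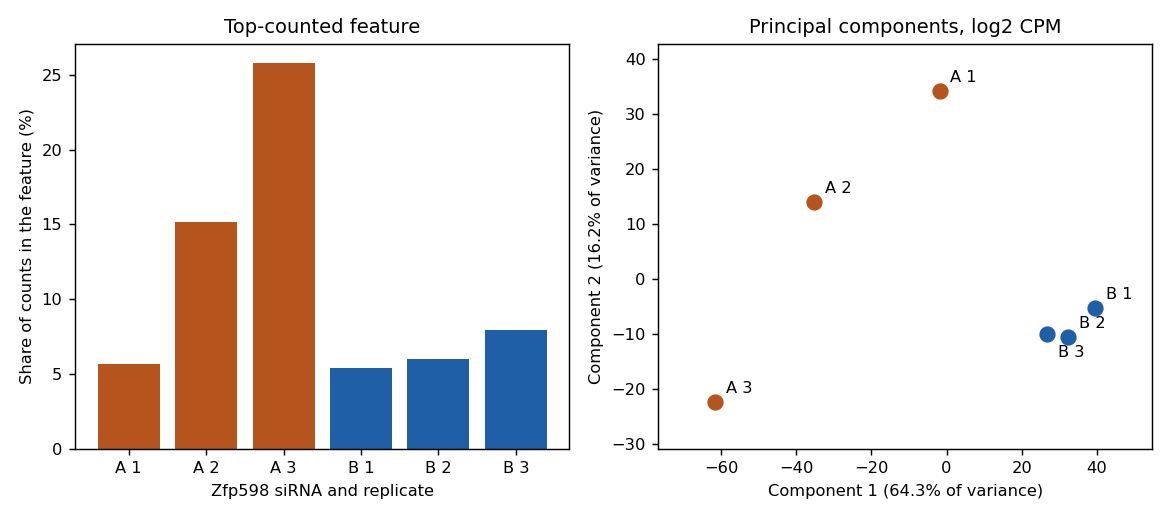
Left, share of all counts (percent, y axis) taken by feature ENSMUSG00000118642 in each Zfp598 siRNA library (x axis). Right, the first and second principal components of log2 CPM (counts scaled to a common library size) over the 16808 tested genes, which hold 64.3% and 16.2% of the variance. The 3 siRNA A libraries (orange) are spread along both components, in the order of their feature share on the first, and the 3 siRNA B libraries (blue) lie close together.

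The targeted mRNA was measured first. Zfp598 (chromosome 17, 24888631 to 24900993, + strand, GRCm39) stood at 32.0, 40.9 and 48.5 CPM in the siRNA A libraries and at 41.2, 43.5 and 40.1 CPM in the siRNA B libraries. CPM levels are counts scaled to a common library size, on 1 TMM scale over the 18 libraries. The 6 Scramble libraries lay between 103 and 128 CPM, so all 6 knockdown libraries were below every control. The means were 40.5 ± 8.25 CPM with siRNA A and 41.6 ± 1.73 CPM with siRNA B (SD, n = 3 each), and the groups overlapped. The log2 difference of B over A was 0.06, with a 95% interval from -0.28 to 0.40 (adjusted p = 0.822). An exact two-sided permutation test (p = 0.8) could not have passed, since the smallest p that 3 against 3 allows is 0.1. The value changed with the fit: with the log2 share of the feature as a covariate siRNA B left 0.32 more Zfp598 mRNA on the log2 scale (adjusted p = 0.040), and with siRNA A library 1 as the only siRNA A library it left 0.37 more (adjusted p = 0.023). Fmr1, the target of the other knockdown, was at 74.2, 69.9 and 55.7 CPM with siRNA A and 54.8, 50.7 and 50.3 CPM with siRNA B (log2 difference -0.36, adjusted p = 0.072), and passed the threshold with the covariate (-0.52, adjusted p = 0.00020).

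While Zfp598 itself did not pass the test in the 6-library fit, many other genes did. Of 16808 genes tested, 452 were higher and 605 were lower with siRNA B at an adjusted p under 0.05 and a change over 2-fold, 2.69% and 3.6% of the tested genes. At an adjusted p under 0.05 alone the counts were 1627 higher (9.68%) and 2134 lower (12.7%). The median log2 fold change over all tested genes was -0.00, which TMM scaling sets near 0 by construction, so changes below are relative to the bulk of genes. The genes called higher were low in abundance: 286 of 452 had a mean under 50 counts, against 195 of 605 genes called lower, and 269 and 486 were protein coding. Among the 10540 protein-coding genes with a mean of at least 50 counts, 122 were called higher and 367 lower. Single libraries moved these counts: without siRNA A library 1 there were 1092 higher and 1114 lower genes, without siRNA A library 2 there were 202 and 351, without siRNA B library 1 there were 151 and 272, and without siRNA B library 2 there were 175 and 314. Without siRNA B library 3 the higher count was 275.

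The 12 largest rises among protein-coding genes of at least 50 mean counts were led by Agtr2, and the others ran from 1.79 to 2.84 on the log2 scale. Agtr2, the angiotensin II type 2 receptor (chromosome X, 21350763 to 21355403, GRCm39), had 0 counts in each siRNA A library and 15.9, 18.9 and 11.9 CPM (212, 237 and 139 counts) in the siRNA B libraries. It was also absent or nearly so in the 6 Scramble libraries, with a highest value of 0.199 CPM. Against a floor of 3 counts per siRNA A library it was at least 43.4-fold higher with siRNA B (adjusted p = 0.00025). Capn6, a calpain that lacks protease activity and binds microtubules (chromosome X, 142585227 to 142610467), was at 27.1, 28.6 and 33.2 CPM with siRNA A and at 205, 220 and 205 CPM with siRNA B, while the Scramble range was 34.7 to 63.7 CPM. This 7.15-fold difference (log2 2.84 ± 0.12 SE, adjusted p = 5.11e-06) was accompanied by libraries that hardly varied within either siRNA.

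Ddc, the aromatic amino acid decarboxylase of dopamine synthesis, stood at 5.23, 3.31 and 2.65 CPM with siRNA A and 23.6, 24.2 and 21.4 CPM with siRNA B (5.89-fold, adjusted p = 0.00035), and Scramble libraries reached at most 3.44 CPM. Ppy, the pancreatic polypeptide gene, was at 2.54, 2.56 and 3.18 against 14.7, 14.7 and 16.2 CPM (5.62-fold, adjusted p = 0.00025). The Scramble range of Ppy was 0.508 to 1.63 CPM, so all siRNA A libraries were above it, while for Ddc only siRNA A library 1 was. Tenm4, a teneurin of neuronal adhesion (chromosome 7, 95820453 to 96560300), was at 67.0, 76.7 and 81.9 CPM with siRNA A, 275, 275 and 261 CPM with siRNA B and 111 to 187 CPM with Scramble, so that siRNA A lay below and siRNA B above the controls (3.61-fold between them, adjusted p = 5.95e-05). Lix1 was at 29.4, 19.9 and 18.6 against 93.9, 88.4 and 82.1 CPM (3.85-fold). The other members of the group, Rnf225, Syt9 (a synaptotagmin), Avil (the actin-binding advillin), Csmd1, Acp3 (an acid phosphatase) and Zhx2 (a zinc finger and homeobox repressor), were 3.46- to 5.85-fold higher, and the siRNAs do not overlap in any of the 12, as the choice of these genes required.

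The 12 largest falls ran from -1.89 to -2.52. Galnt15, a transferase that starts O-linked glycosylation (chromosome 14, 31750756 to 31784154), was at 38.8, 39.6 and 41.0 CPM with siRNA A and 6.43, 6.37 and 7.86 CPM with siRNA B, 5.75-fold lower with B (adjusted p = 4.97e-05). The Scramble libraries lay between 24.0 and 42.1 CPM, so siRNA A was inside and siRNA B below the control range. Egr1, an immediate early transcription factor, was at 76.7, 68.0 and 43.0 against 15.6, 14.3 and 18.2 CPM (3.92-fold lower, adjusted p = 0.00067). Vax1, a homeobox gene of the developing eye and forebrain, showed the reverse placement: 10.2, 14.5 and 27.6 CPM with siRNA A stood above the Scramble range of 2.32 to 4.75 CPM, which held the siRNA B values of 3.44, 3.26 and 3.33 CPM.

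Several of the other falls ordered the siRNA A libraries by their share of the top-counted feature. Frat2, a GSK3-binding protein of Wnt signalling, was at 18.5 CPM in library 1, 36.3 in library 2 and 58.7 in library 3 of siRNA A, and at 7.33, 7.80 and 11.3 CPM with siRNA B. Dbp, a clock-controlled transcription factor, was at 31.1, 50.3 and 64.9 against 9.05, 12.0 and 14.6 CPM. Maff, a small Maf factor, was at 79.5, 145 and 202 against 31.2, 39.6 and 40.0 CPM. In each of these genes library 1 of siRNA A lay between the siRNA B libraries and the other siRNA A libraries. Scored on the means of siRNA B and of siRNA A libraries 2 and 3, this placement was found in 508 of 605 genes called lower (84.0%). It was found in 322 of 452 called higher (71.2%) and 7719 of 16808 tested (45.9%). The siRNAs did not overlap in 584 of the genes called lower and 450 of those called higher, against 42.0% of all tested genes. The 45.9% is therefore no like baseline for called genes, and the score counts a placement by any margin. Emid1, Fgfr3 (a fibroblast growth factor receptor), Dusp4 (a phosphatase of MAP kinases), Col16a1, Lfng (a Notch-modifying transferase) and Sdsl completed the 12, at 3.71- to 4.14-fold lower with siRNA B.

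**Figure D2:**
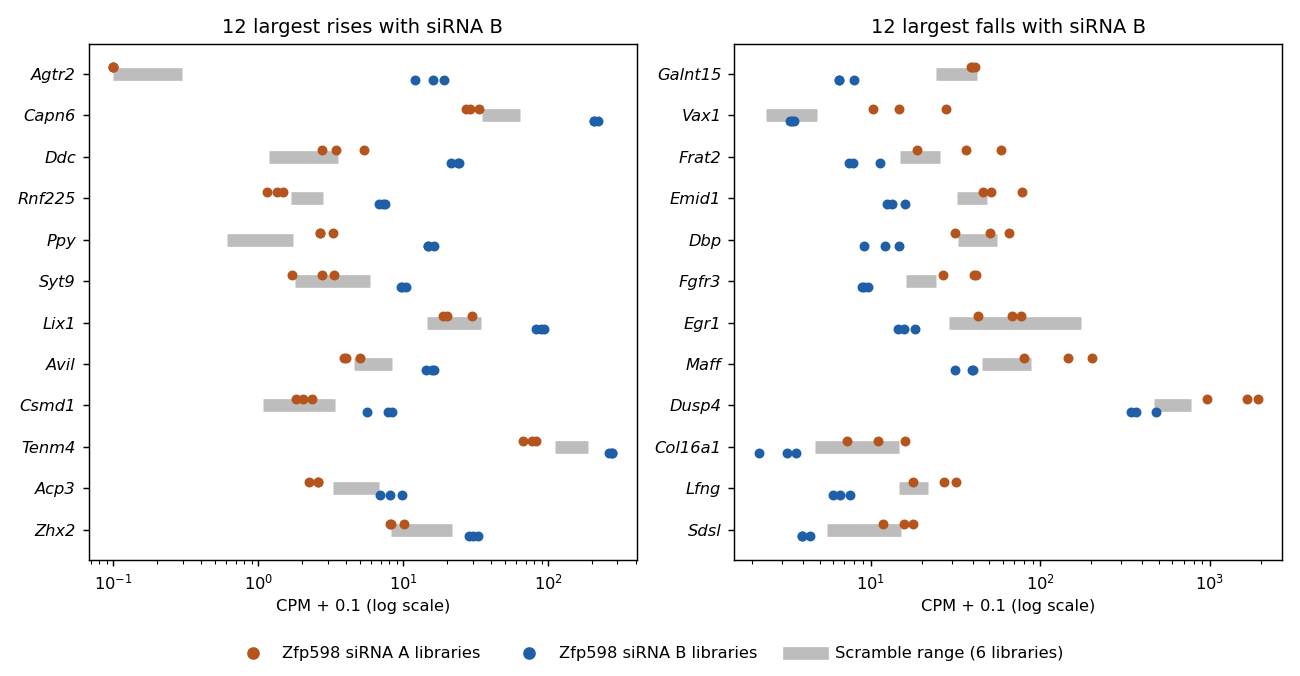
CPM + 0.1 (x axis, log scale) of the 12 largest rises (left) and falls (right) with siRNA B, 1 gene per line. Points are the 3 libraries of Zfp598 siRNA A (orange) and the 3 of siRNA B (blue), and grey bars span the 6 Scramble libraries. The genes were chosen for having no overlap between siRNA A and siRNA B points, and Agtr2 has all siRNA A points at 0 CPM.

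Removing feature ENSMUSG00000118642 before library sizes were computed left the calls nearly as they were: 450 of the 452 higher calls and 603 of the 605 lower calls were kept. Its share as a covariate did more. With the log2 share in the model, 283 of 452 higher calls (62.6%) and 279 of 605 lower calls (46.1%) were kept, and the median log2 fold change of the genes called lower moved from -1.27 to -1.01. Comparing siRNA A library 1 alone, the siRNA A library whose share matched siRNA B, with the 3 siRNA B libraries kept 237 higher calls (52.4%) and 235 lower calls (38.8%). Like the other fits, that comparison reuses libraries on which the calls were made, so agreement in sign or call is no independent support. It assumes that the lone library varies like the siRNA B libraries. All 452 higher calls and 602 of 605 lower calls had the same sign in it, and 228 higher and 229 lower calls passed all 3 of these fits. The 12 largest rises and the 12 largest falls were kept in each of them.

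**Figure D3:**
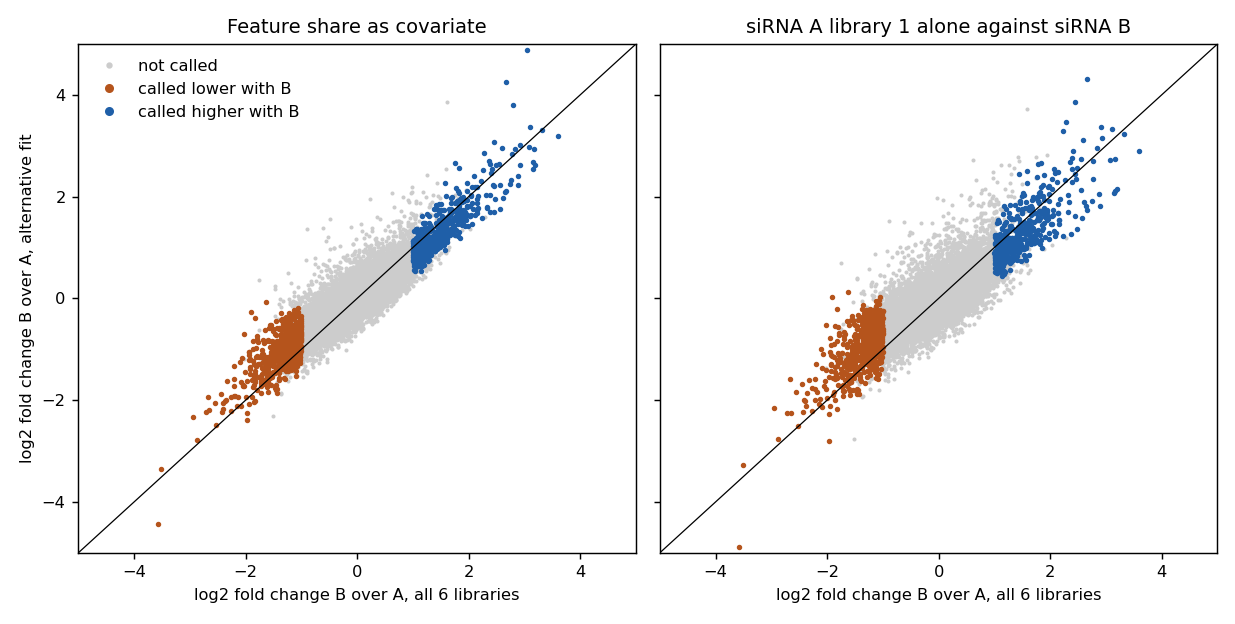
Log2 fold change of siRNA B over siRNA A for each tested gene in the fit of all 6 libraries (x axis) against the fit with the log2 share of the feature as a covariate (left, y axis) or with siRNA A library 1 as the only siRNA A library (right, y axis). Blue and orange mark genes called higher (452) and lower (605) in the 6-library fit, grey the rest, and the line is equality; 3 genes on the left and 6 on the right lie beyond the limit of 5. Orange points lie mostly above the line, that is nearer to 0 in the alternative fits.

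Genes of glycolysis and of the response to low oxygen were the group with the largest share of falls among the lists examined. These genes encode the enzymes that turn glucose into lactate, the glucose transporters that feed them and the classical targets of hypoxia-inducible factors (HIF). Of 35 members tested, 24 were lower with siRNA B (68.6%, against 12.7% of all tested genes), 0 were higher and 11 did not pass. The median log2 fold change was -0.58, beside -0.00 over all tested genes. It was -0.57 with the covariate (31 lower and 0 higher, against 2439 and 2162 of 16808 tested genes). With siRNA A library 1 alone the median was -0.59, so the values hardly differ between the fits. The Scramble siRNAs B and A differed by a median of -0.07 in the same genes, and 17 of the 35 fell more between the Zfp598 siRNAs than between the Scramble siRNAs at adjusted p under 0.05, against 1968 of 16808 tested genes.

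Eno2, the neuronal enolase, was at 547, 647 and 559 CPM with siRNA A and 183, 181 and 214 CPM with siRNA B (3.02-fold lower, adjusted p = 0.00025). The 6 Scramble libraries lay between 311 and 665 CPM, so siRNA A was inside and siRNA B below their range. Ndrg1, a hypoxia-induced stress gene, was at 9.64, 14.3 and 11.7 against 2.24, 4.06 and 4.19 CPM (3.38-fold lower). Aldoc, aldolase C, was at 112, 85.1 and 81.2 against 35.1, 44.9 and 38.5 CPM (2.35-fold lower), and Slc2a1, the glucose transporter GLUT1, at 99.0, 116 and 114 against 48.0, 46.2 and 49.0 CPM (2.29-fold lower). No siRNA A library overlapped a siRNA B library in these 4 genes. Gapdh and Ldha were among the members that did not pass.

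Promoters of this list were examined because its members moved together. RefSeq promoters (250 bases before to 50 after the start, GRCm38.p6, a build other than that of the counts) were found for 32 of the 35 tested members. The core of the HIF-binding element, ACGTG, was searched on both strands (CACGT on the strand printed), and a match can also be part of the E-box that basic helix-loop-helix factors bind. At least 1 promoter held it in 22 of the 32 members (68.8%), against 5886 of 27025 genes in the promoter table (21.8%) and 3011 of the 10465 tested genes that had a promoter there (28.8%). The list was compiled in part from known HIF targets, so a share above these is no independent observation. The members that fell and those that did not pass held it alike, in 15 of 22 (68.2%) and 7 of 10 (70.0%). The 3 largest falls with a promoter in the table are printed 5′ to 3′ on the gene's strand, with the core in capitals; Eno2 (chr6:124769624-124769923, - strand) held none in this window, and Aldoc (chr11:78322823-78323122, + strand) and Slc2a1 (chr4:119108495-119108794, + strand) held 1 each. These matches describe letters only.
Eno2: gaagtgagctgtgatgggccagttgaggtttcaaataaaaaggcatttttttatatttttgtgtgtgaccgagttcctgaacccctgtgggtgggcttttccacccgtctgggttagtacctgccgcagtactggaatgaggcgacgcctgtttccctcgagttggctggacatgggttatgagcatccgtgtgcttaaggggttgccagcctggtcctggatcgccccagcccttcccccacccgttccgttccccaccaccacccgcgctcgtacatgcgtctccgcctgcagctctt
Aldoc: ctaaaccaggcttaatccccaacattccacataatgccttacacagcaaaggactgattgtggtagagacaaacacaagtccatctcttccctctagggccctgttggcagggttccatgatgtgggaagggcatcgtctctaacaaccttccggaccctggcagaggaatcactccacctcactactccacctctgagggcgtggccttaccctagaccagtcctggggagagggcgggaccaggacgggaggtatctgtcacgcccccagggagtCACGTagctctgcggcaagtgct
Slc2a1: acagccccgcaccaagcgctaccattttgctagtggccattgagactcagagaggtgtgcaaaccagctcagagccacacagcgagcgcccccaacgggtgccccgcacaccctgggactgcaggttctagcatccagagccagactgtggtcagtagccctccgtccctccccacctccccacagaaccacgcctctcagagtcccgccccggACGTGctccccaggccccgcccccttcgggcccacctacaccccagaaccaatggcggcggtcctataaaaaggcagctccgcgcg

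Transcripts known to respond to the ERK MAP kinase pathway included 14 of 31 that were lower with siRNA B. ERK signalling induces immediate early transcription factors and, as feedback, its own inhibitors of the Dusp, Spry and Spred families. Of 31 members tested, 14 were lower with siRNA B (45.2%, against 12.7% of all tested genes). None was higher and 17 did not pass, with a median of -0.45. With the covariate 18 were lower and 2 higher (median -0.34), against 2439 and 2162 of 16808 tested genes. With siRNA A library 1 alone the median was -0.42. Egr1 was described above, and Dusp4 stood at 963, 1663 and 1906 CPM with siRNA A, 344, 364 and 478 CPM with siRNA B and 470 to 777 CPM with Scramble. In Dusp4 all siRNA A libraries lay above the controls, siRNA B libraries 1 and 2 lay below them and siRNA B library 3 lay inside their range. Ier3 was at 26.8, 26.2 and 21.6 against 10.6 to 11.5 CPM and Fosb at 5.01, 5.01 and 6.37 against 2.02, 2.63 and 2.48 CPM, each 2.26-fold lower. Between the Scramble siRNAs the list's median was 0.28. In this list 18 members fell more between the Zfp598 siRNAs than between the Scramble siRNAs, while 2 did the opposite. Over all 16808 tested genes these counts were 1968 and 1802.

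**Figure D4:**
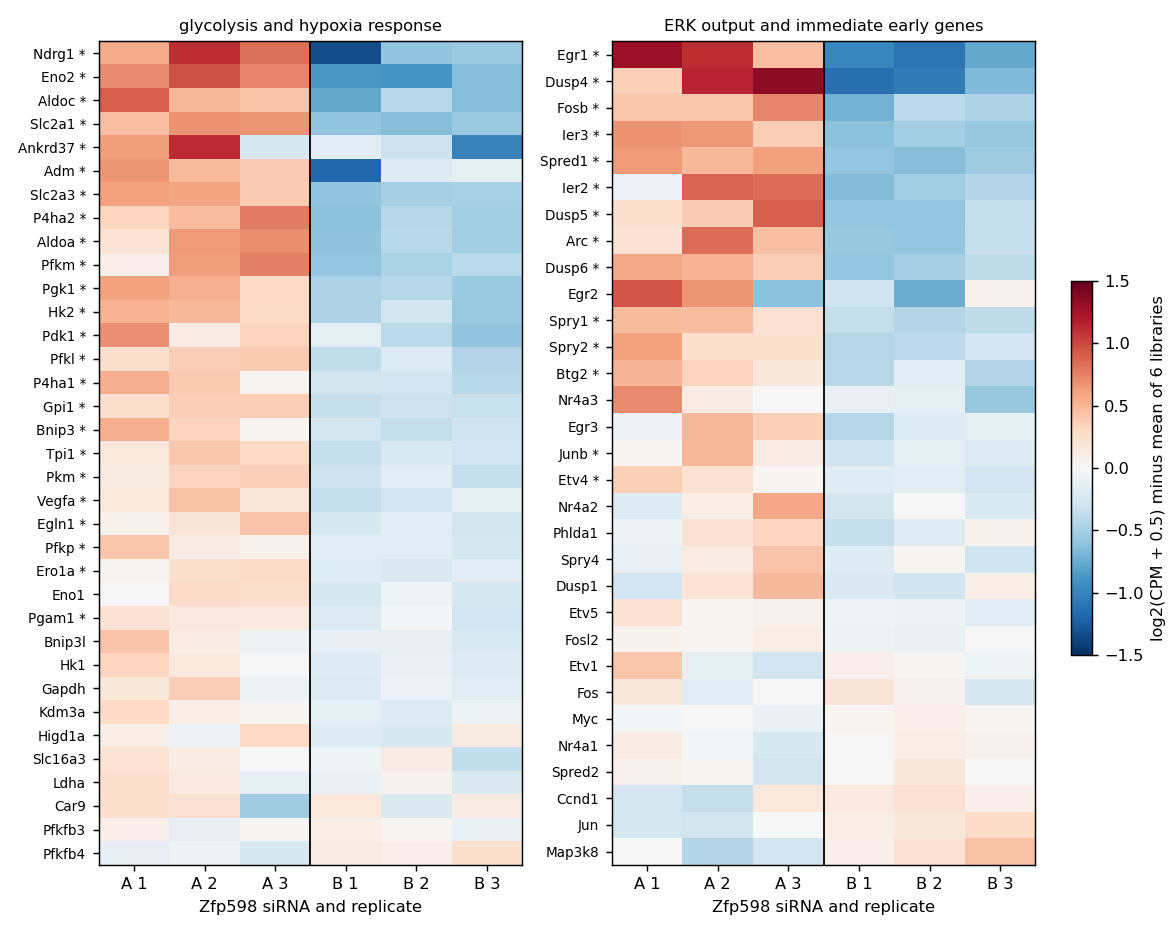
log2(CPM + 0.5) of each tested member minus its mean over the 6 libraries (colour, red above and blue below), for the 35 genes of glycolysis and hypoxia (left) and the 31 genes of ERK output (right), ordered by log2 fold change, with the Zfp598 siRNA libraries on the x axis. An asterisk marks genes that passed at adjusted p under 0.05, 24 on the left and 14 on the right.

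Among cytosolic ribosomal proteins, replication-dependent histones and abundant noncoding RNAs, 37 of 79, 14 of 41 and 7 of 17 genes were lower with siRNA B, and the siRNA A libraries differed among themselves in these lists. Of 79 ribosomal protein genes 37 were lower (46.8%, against 12.7% of all tested genes) and 1 was higher, with a median of -0.46. The summed level of the list was 44198, 60918 and 61890 CPM in siRNA A libraries 1, 2 and 3 and 32635, 37198 and 39931 CPM in the siRNA B libraries. The median was -0.29 with the covariate and -0.27 with siRNA A library 1 alone. Rpl17 was at 596, 984 and 963 against 208, 242 and 265 CPM (3.54-fold lower), and with library 1 alone its log2 difference of -1.83 was -1.33. Rps4x, at 1973, 4176 and 4813 against 1346, 1579 and 1760 CPM, and Rps2, at 2954, 5372 and 6560 against 2050, 2203 and 2714 CPM, moved further, from -1.22 to -0.34 and from -1.09 to -0.35, as did Rpl37a, from -1.31 to -0.33. Ribosomal proteins have many near-identical pseudogene copies, and how reads shared with them were counted is not given in the sources used here.

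The 41 histone genes tested code for the nucleosome proteins made in S phase. Of these, 14 were lower with siRNA B (34.1%, against 12.7% of all tested genes) and 1, H2bc11, was higher. The histone median was -0.40 in the 6-library fit, -0.07 with the covariate and -0.03 with siRNA A library 1 alone. In 29 of the 41 genes library 1 lay between the mean of siRNA B and that of the other siRNA A libraries. H1f2 followed that pattern, at 164, 319 and 493 against 73.0, 88.3 and 103 CPM. H4c12 and H4c3 were 2.94- and 2.39-fold lower. H1f4, a linker histone, was at 121, 195 and 185 against 43.3, 55.5 and 61.7 CPM and kept a log2 difference of -1.19 with library 1 alone. Among 17 abundant noncoding RNAs tested, 7 were lower (41.2%) and 2 higher (11.8%), beside 12.7% and 9.68% of all tested genes. Their median of -0.73 was -0.42 with library 1 alone. Residual 18S rRNA (Rn18s, annotated as Rn18s-rs5) was at 7191, 1981 and 3027 CPM with siRNA A and 868, 998 and 1237 CPM with siRNA B, while the Scramble libraries lay between 758 and 1453 CPM. All siRNA A libraries were above that range and all siRNA B libraries inside it, and the highest value was in siRNA A library 1. The part of RNA quality or of rRNA depletion in these differences was not tested.

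Of 42 genes of DNA replication and the G1/S transition, 18 were higher with siRNA B (42.9%, against 9.68% of all tested genes) and 4 lower, with a median of 0.31. With the covariate 25 were higher and 2 lower (median 0.42), against 2162 and 2439 of 16808 tested genes. With siRNA A library 1 alone the median was 0.39. Mcm4, a subunit of the replicative helicase, was at 21.4, 19.9 and 15.6 CPM with siRNA A and 37.0, 43.3 and 38.9 CPM with siRNA B (2.08-fold). Ccne2 (cyclin E2), Tyms (thymidylate synthase) and Pola1 (DNA polymerase alpha) were 1.96-, 1.95- and 1.93-fold higher. The lower members were E2f1, Gins1, Gins4 and Lig1. The difference between the Scramble siRNAs was larger in the same direction: their B over A median was 0.77 in this list, 20 of the 42 members were less raised between the Zfp598 siRNAs than between the Scramble siRNAs, and 0 were more raised; the Scramble siRNAs carry the same letters but are different molecules, and whether a letter also marks a shared day or plate is not given in the sources used here. Of 40 genes of mitosis and G2/M, 6 were higher (15%) and 5 lower (12.5%), beside 9.68% and 12.7% of all tested genes. The higher genes included Nuf2 (kinetochore) and Pbk and the lower genes Ube2c and Cenpf, and the list's median was 0.14. Between the Scramble siRNAs that median was 0.85.

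The list of NGD and ribosome quality control factors, which holds Zfp598 itself, was examined next. Of 29 genes of NGD and ribosome quality control tested, 3 were higher, 3 lower and 23 did not pass, with a median of 0.06 and 0 members past 2-fold. Its shares were 10.3% in each direction, beside 9.68% and 12.7% of all tested genes. With the covariate 6 were higher, Zfp598 itself among them (log2 0.32), and 6 lower (2162 and 2439 of 16808 tested genes). With siRNA A library 1 alone the median was 0.07. N4bp2, an endonuclease candidate for cleavage between collided ribosomes, was at 67.4, 52.4 and 52.5 CPM with siRNA A and 105, 97.6 and 94.1 CPM with siRNA B (1.72-fold higher, adjusted p = 0.0040). The Scramble libraries lay between 67.9 and 83.5 CPM, so siRNA A was below and siRNA B above them. Ascc1, of the complex that splits collided ribosomes, was at 51.3, 51.1 and 61.5 against 34.2, 35.1 and 38.7 CPM (1.51-fold lower), Gtpbp2, a ribosome rescue GTPase, was 1.40-fold lower and Tcf25 1.33-fold lower. Edf1, Gigyf2, Eif4e2, Pelo, Hbs1l, Nemf and Ltn1 were among those that did not pass.

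The machinery that siRNAs use was also measured. Of 16 genes of RNA interference and microRNA processing, 4 were higher with siRNA B (25%, against 9.68% of all tested genes). None was lower (against 12.7% of all tested genes) and 12 did not pass, with a median of 0.22. The median was 0.16 with the covariate and 0.14 with siRNA A library 1 alone, beside 0.16 between the Scramble siRNAs. In 2 members the B over A difference was above that of the Scramble siRNAs, and in 1 it was below. Over all 16808 tested genes these counts were 1802 and 1968. Ago2, the slicing Argonaute, was at 510, 458 and 470 CPM with siRNA A and 652, 676 and 626 CPM with siRNA B (1.36-fold higher). The Scramble range was 672 to 890 CPM, and siRNA B library 2 alone reached into it. Dgcr8 (Microprocessor) and Xpo5 (export of precursor microRNAs) were 1.43- and 1.42-fold higher, and Cnot1 (deadenylation) was higher by 0.58 on the log2 scale. Of 24 genes of protein folding in the endoplasmic reticulum (ER), 5 were higher (20.8%) and 0 lower, with a median of 0.26. With the covariate 10 were higher and 1 lower, against 2162 and 2439 of 16808 tested genes. Hspa5, the ER chaperone BiP, was at 431, 523 and 507 CPM with siRNA A, 740, 813 and 766 CPM with siRNA B and 605 to 1126 CPM with Scramble, so here siRNA A stood outside and siRNA B inside the control range. Dnajb11, Manf and Derl2 were 1.82-, 1.63- and 1.61-fold higher. Of 26 heat shock genes, 2 were higher (7.69%) and 3 lower (11.5%), beside 9.68% and 12.7% of all tested genes, with a median of -0.00. The 3 lower genes were all subunits of the CCT chaperonin.

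Of 30 genes of Wnt and Notch signalling, 7 were lower (23.3%) and 2 higher (6.67%), beside 12.7% and 9.68% of all tested genes. The list's median was -0.28 (-0.17 with siRNA A library 1 alone). Wnt7b, a Wnt ligand, was at 2.91, 4.16 and 3.36 CPM with siRNA A, at 0.299, 0.239 and 0.342 CPM with siRNA B and at 1.85 to 10.1 CPM with Scramble (11.4-fold lower with B, adjusted p = 0.00084). These siRNA B levels rest on few counts, so the size of the fold is uncertain. Lfng, which modifies Notch, the receptor gene Notch3 and the Hes family member Hes6 were 3.79-, 3.32- and 2.38-fold lower. Notch3 was at 12.9, 21.1 and 29.2 against 4.79, 6.93 and 6.92 CPM. Among 19 axon guidance genes, 3 were higher and 3 lower (15.8% each), beside 9.68% and 12.7% of all tested genes. The median was 0.19, and 0.08 with library 1 alone, beside -0.49 between the Scramble siRNAs. Efnb3 (an ephrin) was at 0.374, 0.320 and 0.884 against 2.47, 2.39 and 2.48 CPM, and Nrp1 (a semaphorin co-receptor) was 2.35-fold higher. Slit1 and Unc5a were 3.25- and 2.25-fold lower. Among 18 extracellular matrix genes, 7 were lower (38.9%) and 2 higher (11.1%). Their median was -0.36, and the median between the Scramble siRNAs was -0.48. Sparc, a secreted matrix protein, was at 155, 144 and 184 against 68.3, 77.1 and 70.0 CPM, while Fn1 (fibronectin) was at 263, 182 and 172 against 453, 493 and 392 CPM.

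Stress, immune and metabolic lists held calls in both directions, to be read against the 9.68% higher and 12.7% lower of all tested genes. Of 44 genes of the ATF4 response to amino acid and translation stress, 6 were higher (13.6%) and 8 lower (18.2%), with a median of -0.01. With the covariate 14 were higher and 8 lower (median 0.15), against 2162 and 2439 of 16808 tested genes. Slc7a11, the cystine transporter, was at 29.5, 25.7 and 28.3 against 67.2, 65.4 and 60.2 CPM (2.31-fold higher), and Cbs, an enzyme that makes cystathionine, at 22.7, 28.1 and 31.3 against 7.93, 8.84 and 12.0 CPM (2.84-fold lower). Gdf15 and Pck2 were 2.30- and 2.06-fold lower. Of 36 interferon-response genes 6 were higher (16.7%) and 5 lower (13.9%), with a median of 0.13 (-0.43 between the Scramble siRNAs). Mx2, an antiviral GTPase, was at 30.4, 46.9 and 40.9 against 12.4, 10.8 and 15.4 CPM (3.04-fold lower). Dhx58 (a sensor of double-stranded RNA) and Ifitm3 were 2.70- and 2.52-fold higher at levels of at most 5.24 CPM, and Samd9l had 0.224, 0 and 0 CPM against 1.12, 1.03 and 0.940 CPM (adjusted p = 0.0143).

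Of 23 genes of the NRF2 and glutathione response, 7 were higher (30.4%) and 6 lower (26.1%), with a median of 0.06, led by Slc7a11, Gstp1 (2.15-fold lower, and not past the threshold with siRNA A library 1 alone) and Taldo1 (1.85-fold higher). Of 25 p53 targets, 2 were higher (8%) and 7 lower (28%), with a median of -0.12 (0.02 and 4 lower with library 1 alone), with Psrc1 3.60-fold lower. Of 35 genes of cholesterol and fatty acid synthesis, 5 were higher (14.3%) and 6 lower (17.1%), with a median of 0.03 (-0.21 and 13 lower with library 1 alone, and -0.54 between the Scramble siRNAs), with Pmvk and Tm7sf2 2.95- and 2.07-fold lower and Hsd17b7 2.08-fold higher. Of 35 nuclear subunits of oxidative phosphorylation, 2 were higher (5.71%) and 4 lower (11.4%), with a median of -0.15 (0.06 with library 1 alone, and -0.31 between the Scramble siRNAs), with Cox7c 2.48-fold lower and Cycs (cytochrome c) 2.17-fold higher. Of 12 mitochondrially encoded subunits, mt-Nd5 and mt-Nd6 were lower (16.7%) and 0 higher. The list's median of 0.37 was -0.12 with library 1 alone. Of 19 Id and BMP genes, 3 were higher (15.8%) and 2 lower (10.5%), beside 9.68% and 12.7% of all tested genes. Their median was -0.14, and 0.17 with library 1 alone.

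**Figure D5:**
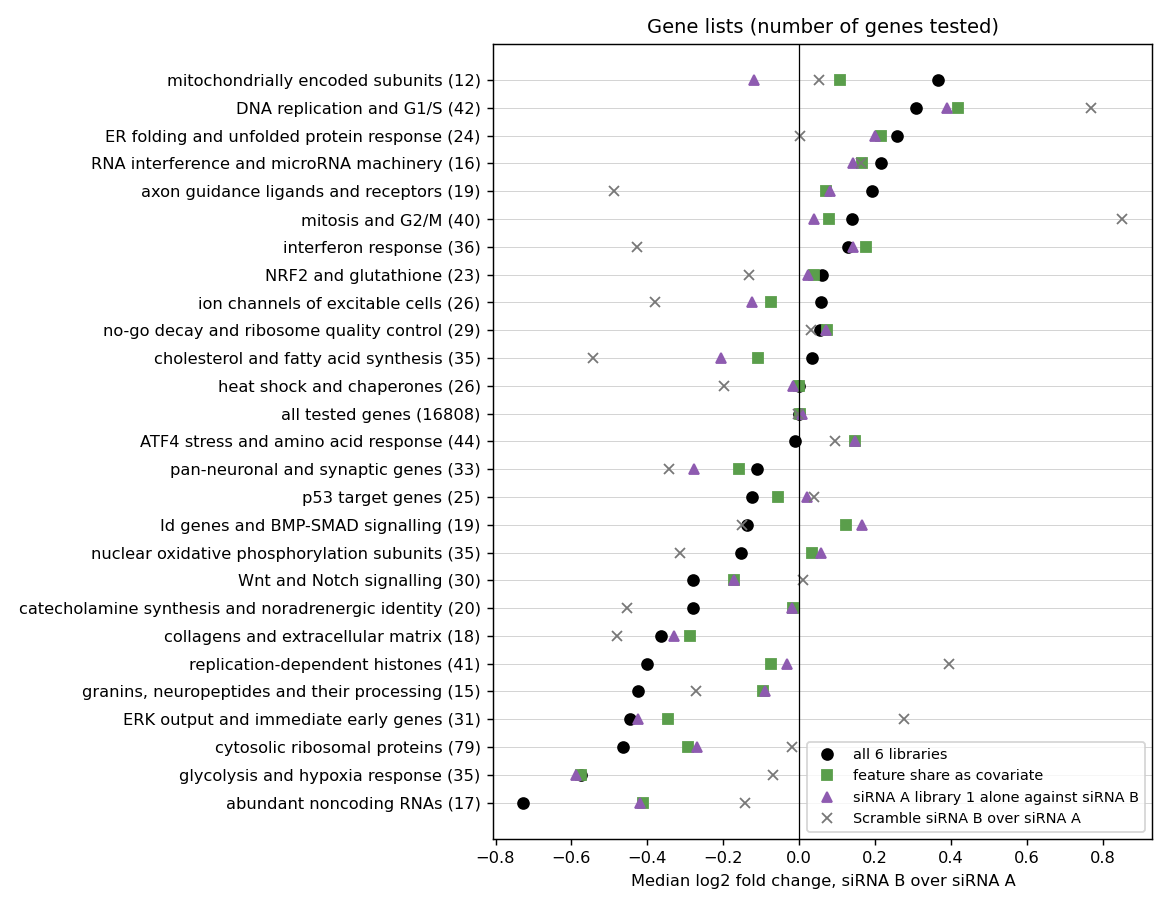
Median log2 fold change of siRNA B over siRNA A (x axis) in each gene list (y axis, number tested in brackets) for all 6 Zfp598 siRNA libraries (circles), with the log2 share of the feature as a covariate (squares), with siRNA A library 1 as the only siRNA A library (triangles), and for the Scramble siRNAs (crosses). Glycolysis and hypoxia (-0.58, -0.57 and -0.59) keep their median in the 3 Zfp598 fits, histones (-0.40, -0.07 and -0.03) do not, and for DNA replication the Scramble median (0.77) is the largest of the 4.

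N2A cells derive from the sympathetic nervous system, and markers of that identity were present. The counts of these lists are to be read against the 9.68% higher and 12.7% lower of all tested genes. Of 10 markers of sympathetic neuroblasts 9 were tested, and 22.2% of these were lower. The intermediate filament gene Prph, at 1534, 2565 and 3170 against 1023, 1195 and 1302 CPM, and Stmn2, at 248, 256 and 233 against 146, 161 and 146 CPM, were lower with siRNA B, and the other 7 did not pass. The list's median was -0.30 (0.02 with library 1 alone), and between the Scramble siRNAs it was -0.70. Of 33 pan-neuronal and synaptic genes, 10 were lower (30.3%) and 2 higher (6.06%). The median was -0.11, and -0.28 with library 1 alone, beside -0.34 between the Scramble siRNAs. Nefh and Rab3c were 2.34- and 1.76-fold lower and the adhesion molecule Ncam1 1.70-fold higher. Of 15 granins and neuropeptides, 4 were lower (26.7%) and 2 higher (13.3%). The median was -0.42, and -0.09 with library 1 alone, beside -0.27 between the Scramble siRNAs. The secretory granule genes Scg5 and Scg2 were 2.12- and 1.67-fold lower, while Ppy and Nppa were higher. Of 20 genes of catecholamine synthesis and noradrenergic identity, 5 were lower (25%) and 3 higher (15%). The median was -0.28, and -0.02 with library 1 alone, beside -0.45 between the Scramble siRNAs. Slc18a1, a vesicular monoamine transporter, was 1.85-fold lower, whereas Ddc and Pts, which make dopamine and a cofactor of its synthesis, were 5.89- and 1.79-fold higher. Of 26 ion channel genes, 5 were lower (19.2%), led by Kcnk3 and Kcnc1, and 2 higher (7.69%), led by Scn1a. The median was 0.06, and -0.13 with library 1 alone, beside -0.38 between the Scramble siRNAs.

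Id3, Dbh, Map3k8 and Tbr1 were first picked as candidates on these libraries, so their levels here are no independent evidence of a direction. The study then repeated the knockdowns and kept the candidates that RT-qPCR reproduced with both siRNAs. It also reported increased stability of these mRNAs after depletion of either target. Those measurements are separate from the counts used here. Tbr1, a T-box factor of cortical neurons, was at 0.0747, 0.213 and 0.707 CPM with siRNA A and 1.20, 1.75 and 2.14 CPM with siRNA B (6.35-fold higher, adjusted p = 0.0154), with a mean of 11.7 counts, and it no longer passed without siRNA A library 2 (adjusted p = 0.0805), siRNA B library 2 (0.0708) or siRNA B library 3 (0.0638). Id3, an inhibitor of basic helix-loop-helix factors, was at 6.35, 9.17 and 9.55 against 11.1, 14.1 and 13.5 CPM (1.57-fold higher, adjusted p = 0.044). It did not pass in 5 of the 6 fits that left out 1 library (adjusted p up to 0.166, without siRNA B library 2). With the covariate the log2 difference of Id3 moved from 0.65 to 0.95 (adjusted p = 0.00058). That of Tbr1 moved from 2.67 to 4.26 (adjusted p = 0.00013). With siRNA A library 1 alone they were 1.01 for Id3 and 4.32 for Tbr1. Dbh (dopamine beta-hydroxylase, 3.21, 2.56 and 3.89 against 5.24, 6.37 and 3.85 CPM) and Map3k8 (0.747, 0.426 and 0.531 against 0.823, 0.955 and 1.20 CPM) did not pass. Their log2 differences of 0.71 and 0.74 were 0.68 and 0.60 with the covariate, where they did not pass either. With siRNA A library 1 alone they were 0.68 and 0.39. In all 4 genes the median of the Scramble libraries was below the lowest siRNA B library. For Id3 and Dbh all siRNA A libraries were also above the highest Scramble library (5.91 and 1.39 CPM). For Map3k8 all siRNA A libraries were above the Scramble median (0.226 CPM). For Tbr1 siRNA A library 1 was below the Scramble median (0.176 CPM) and libraries 2 and 3 were above it. Prkg2, a cGMP-dependent kinase, was at 6.58, 6.61 and 7.25 against 2.54, 2.87 and 3.67 CPM (2.24-fold lower, adjusted p = 0.00823), with Scramble libraries from 5.36 to 40.0 CPM, and did not pass without siRNA B library 1 (adjusted p = 0.055) or siRNA B library 2 (0.0515).

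Markers of other cell types were checked, and most members of each list were too low to test. The few calls are to be read against the 9.68% higher and 12.7% lower of all tested genes. The summed level of 10 fibroblast markers was 25.9 to 38.9 CPM with siRNA A and 20.3 to 27.5 CPM with siRNA B. Col1a2, Col3a1, Lum and Postn were at 0 counts in all 6 libraries. Of the 3 tested, Col1a1 and Pdgfrb were lower with siRNA B. The 10 glial markers summed to 59.2 to 64.5 and 44.6 to 58.1 CPM, with Foxd3, Olig2 and Aqp4 at 0. Of the 4 tested, 2 were lower, Mbp among them. The 10 macrophage markers summed to 2.03 to 2.76 and 3.25 to 4.54 CPM, with Adgre1 and C1qb at 0. Of the 2 tested, Cd68 was higher. The 10 epithelial and endothelial markers summed to 11.8 to 15.6 and 6.13 to 8.54 CPM, with Epcam, Krt18 and Kdr at 0. Of the 3 tested, Pecam1 and Krt8 were lower. Of 12 markers of pluripotent stem cells 2 were tested and 0 passed, with Zfp42, Dppa5a, Utf1 and Sox2 at 0. In whole-cell extracts, fewer cells of a kind and less RNA per cell cannot be told apart.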

How the data were processed

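RNA-seq was made from N2A cells 72 h after siRNA transfection. The authors aligned trimmed reads to GRCm39 with STAR and deposited raw counts per gene from featureCounts over exons; the annotation release, strand setting and treatment of multi-mapped reads are not given in the sources used here. The deposited table holds 18 libraries as counts, of which 6 (Zfp598 siRNA A 1 to 3 and siRNA B 1 to 3, grouped by their labels) entered the main comparison; the Scramble libraries gave control levels and the test against the Scramble siRNA difference. Symbols came from GENCODE M39 (54749 of 55414 features matched, 98.8%).

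Genes were kept by filterByExpr (minimum count 10, total 15), leaving 16808, normalized by TMM and tested with edgeR 4.0.16 (R 4.3.3, quasi-likelihood test, Benjamini-Hochberg adjustment over all tested genes). Genes were called at an adjusted p under 0.05 and over 2-fold. CPM levels used 1 TMM scale over 18 libraries. Calls were recomputed with the feature ENSMUSG00000118642 removed, its log2 share as a covariate, both, without siRNA A libraries 2 and 3, without each library in turn, with DESeq2 1.42.0, RLE factors, other count filters and fold thresholds, all 18 libraries and a replicate block. Tests were tried on simulated counts beforehand. Totals of 7674724 to 13360908 counts limit what low genes can show; the floor of 3 counts covers counting error only.

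Genes named were Zfp598, Fmr1 and the feature, the 12 largest rises and falls (protein coding, called, mean of at least 50 counts, no overlap between siRNAs), up to 4 members of each list with the largest change at adjusted p under 0.05, and Id3, Dbh, Map3k8, Tbr1, Ppy, Ddc and Prkg2; other members were named after their values were seen. Members and lists were chosen with earlier results of these data known, so no list was given a test. Some genes that these rules select are not reported here.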

Additional observations from a re-analysis of the deposited data

Results flagged for a closer look

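The difference between the Zfp598 siRNAs was tested against the difference between the Scramble siRNAs of the same letters, as a contrast of differences over 18 libraries in edgeR. Of the 452 genes higher with Zfp598 siRNA B, 237 also passed this test in the same direction at an adjusted p under 0.05 and over 2-fold, and of the 605 lower genes 256 did. Counted in the same way, 1186 of all 16808 genes tested between the Zfp598 siRNAs passed. The contrast holds the same Zfp598 libraries on which the genes were called. A higher pass rate among called genes is therefore partly built in and is no independent support. Over all genes tested in the fit of 18 libraries, 1346 passed in either direction. Capn6, Galnt15, Eno2 and Egr1 were among those that passed, with contrasts (log2) of 3.46, -3.04, -1.34 and -3.90. For Egr1 the Scramble siRNAs themselves differed, by 1.92 in the direction opposite to the Zfp598 siRNAs. Agtr2 passed as well, and since its other groups were at or near 0 counts no size is given. Mcm4, Tyms and Ccne2 did not pass, with contrasts of -0.20, 0.09 and 0.18.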

How the results depend on the processing

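The count of genes higher with siRNA B (452) was 178 with a mean of at least 50 counts required, 1089 over 1.5-fold and 87 in a test against a 1.5-fold change (glmTreat). The count lower (605) was 363 with the covariate, 370 with the feature removed as well, 352 without siRNA A libraries 2 and 3, 379 with the mean of at least 50 counts, 1539 over 1.5-fold and 178 with glmTreat. Leaving out 1 library gave 151 to 1092 higher and 272 to 1114 lower calls: 1092 and 1114 without siRNA A library 1, 202 and 351 without siRNA A library 2, 151 and 272 without siRNA B library 1, 175 and 314 without siRNA B library 2, and 275 higher without siRNA B library 3. The cause was not tested. DESeq2 called 407 higher and 614 lower, keeping 83.2% and 94.4% of the calls. The Zfp598 difference (log2 0.06) was 0.32 with the covariate, 0.32 with the feature removed as well and 0.37 without siRNA A libraries 2 and 3, each past the threshold, and ran from -0.094 (without siRNA A library 1) to 0.19 when 1 library was left out. The contrast against the Scramble siRNAs (1346 genes) ran from 1146 to 1906. Among the other named genes the direction changed once: the feature itself was at 0.13 without siRNA A libraries 2 and 3, against -1.63.

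Same-numbered libraries did not deviate together throughout (correlations of 0.29, -0.02 and 0.17 for numbers 1, 2 and 3), and siRNA A library 2 correlated best with siRNA B library 3 (0.10), so the numbers were not read as pairs. A replicate block gave 536 higher and 629 lower calls, a Zfp598 difference of 0.07 and 1364 genes in the contrast against the Scramble siRNAs. Depth limits the genes called higher most, since 63.3% of them had a mean under 50 counts.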
